A study of Mus musculus with 50 samples.

Results

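The response of the spleen to CpG oligodeoxynucleotides was compared between TNF-KO and C57BL/6 control mice, to ask which CpG-induced rises and falls of mRNA differ in mice without tumor necrosis factor (TNF). Array titles gave the groups, and 16 of the 50 two-colour arrays of the series entered the comparison, 4 in each of 4 groups. These were CpG-treated TNF-KO mice examined 3 h after injection, untreated TNF-KO mice, CpG-treated C57BL/6 control mice examined 3 h after injection and untreated C57BL/6 control mice. All mice of these groups were female and of the C57BL/6 strain, the genotype of the knock-out is labelled only as a TNF knock out, and neither age nor the construct behind the deletion is stated in the labels. The CpG oligodeoxynucleotides were an equimolar mixture injected intraperitoneally. The series text gives a dose of 400 µg for the mixture, and the labels of the C57BL/6 arrays carry no dose of their own. Per the series text each time point holds 4 independent experiments. Every array measured whole-spleen RNA, labelled with Cy5, against Cy3-labelled Universal Mouse Reference RNA, a mixture prepared from several mouse tissues and cells.

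Unmethylated CG dinucleotides are recognised by Toll-like receptor 9, which sits in endosomes, in the spleen mainly of dendritic and B cells, and signals through MyD88 to NF-kB and to interferon regulatory factors. TNF is one of the early products of that pathway. It acts through its receptors Tnfrsf1a and Tnfrsf1b on leukocytes, endothelium and stromal cells, where it can switch on NF-kB in turn, and it is also needed for the normal architecture of B cell follicles in the spleen. Both oligodeoxynucleotides of the mixture are shown because they are the stimulus of every treated array. Capitals mark their CG dinucleotides, of which the first holds 2 in 15 bases and the second 1 in 10 bases.
ODN 1555: gctagaCGttagCGt
ODN 1466: tcaaCGttga

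The levels given here are the deposited log2 ratios (spleen RNA over reference RNA) after each array was centred on its median. A response is the mean level of the CpG-treated arrays minus that of the untreated arrays of the same genotype. The difference is the TNF-KO response minus the control response, so a positive difference means a stronger rise or a weaker fall in TNF-KO mice. All levels, responses and differences are on the log2 scale, and pairs of responses are given for TNF-KO mice and then control mice. The fit covered 14953 named genes, and each array held between 27619 and 30590 probe values. A second label field calls the CpG-treated C57BL/6 arrays untreated. The titles were followed, and the interferon-stimulated gene Ifit3 was higher on every array titled as CpG-treated (4.48 to 5.50) than on every array titled as untreated (1.61 to 2.67). Markers of the spleen were present on every array: the median level of 15 B cell genes lay between 2.45 and 4.02, and that of 18 genes of red pulp and marginal zone macrophages between 2.41 and 3.66. Genes of the neighbouring pancreas and of red blood cell precursors varied widely between arrays, and their values are given after the cell type lists. In whole tissue, fewer cells of a type and less RNA per cell cannot be told apart.

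The response to CpG involved many genes in each genotype, and the difference of responses passed the test for 4 genes (0.0268%). In TNF-KO spleens 564 genes changed (3.77%), of which 516 rose (3.45% of all genes tested) and 48 fell (0.321%), by limma with Benjamini-Hochberg adjustment and a threshold of 0.05 on the adjusted p. In control spleens 1151 genes changed (7.70%), of which 740 rose (4.95%) and 411 fell (2.75%). The median of pancreas genes lay between 0.08 and 3.50 on 4 arrays, called low here, and between 5.69 and 7.22 on all others. Leaving out the 4 thus keeps only the spleen arrays that were high in pancreas genes. The 4 were untreated TNF-KO replicate 3, untreated control replicates 2 and 3 and CpG-treated control replicate 2, so the control groups lost more arrays. Without those arrays 356 genes changed in TNF-KO spleens (329 rose and 27 fell) and 301 in control spleens (234 rose and 67 fell). The difference was positive for Olfml1 and Kazald1 (2 genes, 0.0134%) and negative for Tnf and Stip1 (2 genes, 0.0134%). For a typical gene the 95% interval of the difference had a half-width of 0.64 on the log2 scale, and it lay within a 2-fold change in either direction for 9241 genes (61.8%). The absence of a call therefore does not show that both genotypes responded alike. Without adjustment, the interval of the difference lay above 0 for 717 genes (4.80%) and below 0 for 482 (3.22%).

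Tnf, the targeted gene, rose in control spleens and had a response near 0 in TNF-KO spleens. Its level was 0.43, -0.34, -0.44 and -0.30 on the CpG-treated TNF-KO arrays and -0.61, -0.09, -0.29 and 0.09 on the untreated TNF-KO arrays. CpG-treated control arrays held 4.30, 3.61, 4.59 and 3.16, and untreated control arrays 0.78, 0.62, 0.78 and 0.58. All treated control arrays thus lay far above the other 12 arrays, while treated and untreated TNF-KO arrays overlapped. The response was 0.06 in TNF-KO mice (adjusted p = 0.958) and 3.23 in control mice (adjusted p = 6.39e-07), a difference of -3.17 ± 0.38 (SE, 95% interval -3.96 to -2.37, adjusted p = 0.00183). Before treatment the TNF-KO level was lower by an estimate of -0.91 that missed the threshold (adjusted p = 0.154). No source used here says whether the probe lies inside the deleted part of the gene, so its low level checks the labels only as far as the probe reports the transcript.

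Olfml1, which encodes a secreted olfactomedin-domain protein, fell in control mice and had a response near 0 in TNF-KO mice. On the CpG-treated TNF-KO arrays its level was 0.91, 1.19, 1.67 and 1.14, and on the untreated TNF-KO arrays 1.59, 1.54, 0.81 and 0.41. In control mice it was -0.43, -0.51, -0.91 and -0.17 after CpG and 1.71, 2.08, 1.64 and 1.93 without treatment. Only the treated control arrays lay below 0. The TNF-KO response of 0.14 and the control response of -2.35 (adjusted p = 7.01e-06) differed by 2.49 ± 0.35 (SE, 95% interval 1.75 to 3.22, adjusted p = 0.00976).

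Kazald1, a secreted protein with insulin-like growth factor binding and Kazal domains, followed the same course. Its CpG-treated TNF-KO levels were 2.68, 2.47, 2.83 and 2.07 and its untreated TNF-KO levels 2.45, 2.08, 2.27 and 1.92. The CpG-treated control arrays gave 0.91, 0.76, 1.38 and 1.36, and the untreated control arrays 2.77, 2.38, 2.40 and 2.50. Again the treated control arrays stood below all the others. The difference was 1.74 ± 0.28 (SE, 95% interval 1.15 to 2.33, adjusted p = 0.0345), from responses of 0.33 in TNF-KO and -1.41 in control mice (adjusted p = 0.000145).

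Stip1, a co-chaperone that links Hsp70 and Hsp90, rose in control mice, whose untreated level was the lowest of the 4 groups. It stood at -1.09, -1.17, -0.91 and -1.29 on CpG-treated and at -0.85, -0.59, -0.87 and -0.57 on untreated TNF-KO arrays. CpG-treated control arrays held -0.27, -0.86, -0.33 and -0.76, against -1.58, -1.65, -1.70 and -1.40 on untreated control arrays. The groups were thus already apart without treatment, with untreated TNF-KO mice higher by 0.86 (adjusted p = 0.0353). The responses were -0.40 in TNF-KO mice (adjusted p = 0.271) and 1.03 in control mice (adjusted p = 0.000651), which differed by -1.42 ± 0.24 (SE, 95% interval -1.92 to -0.92, adjusted p = 0.042). The call of Kazald1 was lost without any one of 12 single arrays and that of Stip1 without any one of 14, and they passed in 12 and 7 of 29 alternative settings. Tnf and Olfml1 passed in 28 of 29, the exception being the fit without the 4 arrays low in pancreas genes. In that fit their differences were -3.30 ± 0.50 and 2.37 ± 0.45 (SE), close to those of all 16 arrays, with adjusted p of 0.143 and 0.285.

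**Figure D1:**
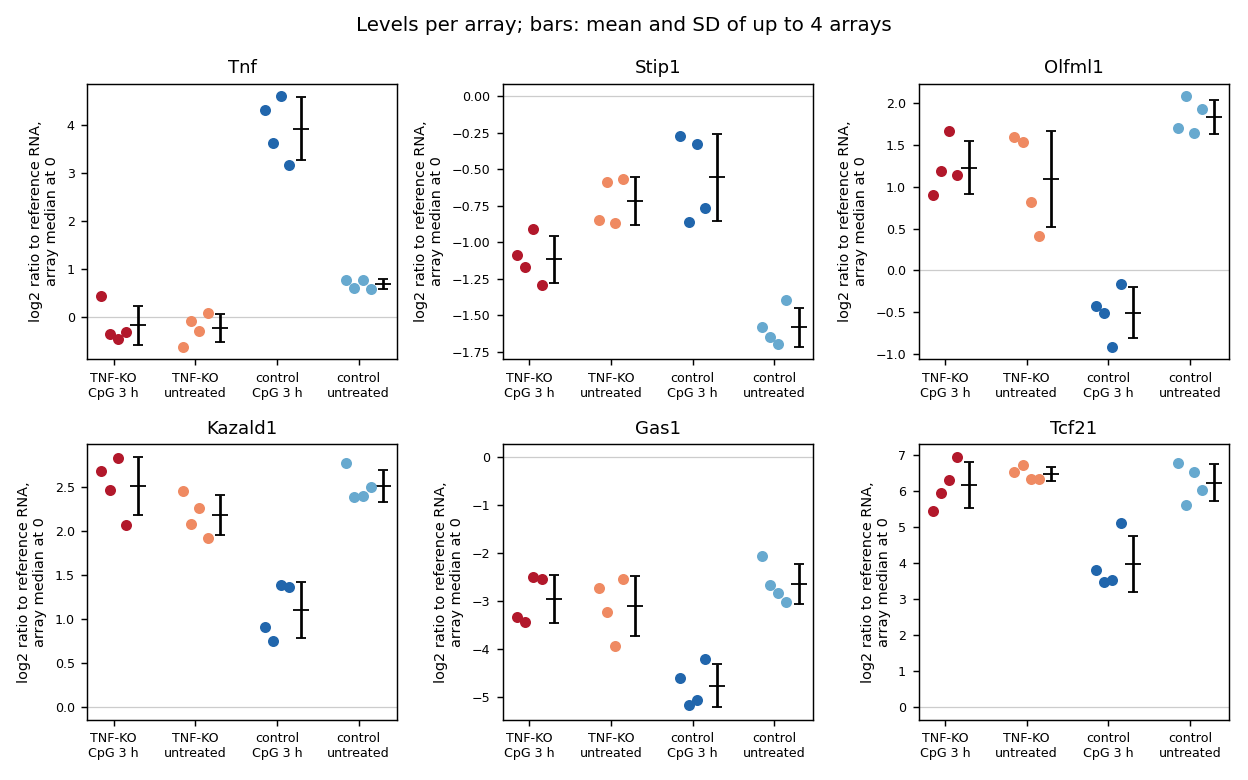
Level of genes named in the text on each of the 16 arrays, as log2 ratio of spleen over reference, with CpG-treated and untreated TNF-KO arrays left of the CpG-treated and untreated control arrays. Tnf was high on the treated control arrays alone (3.16 to 4.59), and Olfml1 was below 0 on the same 4 arrays alone (-0.91 to -0.17).

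Genes repressed by CpG were then chosen in an independent set of mice. In BALB/c spleens, taken 3 h after CpG (n = 4 arrays) and without treatment (n = 6 arrays), 84 of 14905 genes fell by at least 2-fold with an adjusted p under 0.05 (0.564%), and 505 rose by at least 2-fold (3.39%). The fit behind this choice held all BALB/c arrays, also those of other times and of a control oligodeoxynucleotide, which shared in its estimate of the spread. No C57BL/6 array entered that choice. The smallest fall counted was -1.001 and the largest not counted -0.999, and the lists therefore have no natural edge.

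The median fall of the repressed genes was smaller in TNF-KO spleens. Their median response was -0.48 in TNF-KO mice and -1.19 in control mice, against 0.03 and -0.01 over all genes. Of the 84 genes, 15 fell in TNF-KO mice and 61 in control mice, where 0.321% and 2.75% of all genes fell. Estimated falls of at least 2-fold were held by 11 and 52 of them, against 0.221% and 1.15% of all genes. Without the 4 arrays low in pancreas genes, most of them control arrays, 8 of the 84 fell in TNF-KO mice and 28 in control mice. Over all genes 27 and 67 fell in that fit. The median difference was 0.65 (quartiles 0.37 and 1.03), against 0.05 over all genes. The difference was positive for 78 of the 84 (92.9%, against 55.3% of all genes), and its 95% interval lay above 0 for 37 (44.0%) and below 0 for 0. With adjustment over all genes only Kazald1 passed, and the interval lay within a 2-fold change either way for 12 of the 84 (14.3%).

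Array by array, the separation lay after CpG and not before it. The median level of the 84 genes was 0.37, 0.28, 0.50 and 0.60 on CpG-treated TNF-KO arrays and 1.22, 1.07, 0.91 and 0.85 on untreated TNF-KO arrays. It was -0.35, -0.56, -0.22 and 0.04 on CpG-treated control arrays and 0.98, 1.29, 1.03 and 0.98 on untreated control arrays. Each treated TNF-KO array stood above each treated control array, whereas untreated arrays of both genotypes overlapped. For single genes, every treated TNF-KO array exceeded every treated control array in 26 of the 77 genes measured on all 16 arrays (33.8%, against 4.49% of 13334 genes). Without treatment the same ordering held for 0 of the 77, against 2.87% of all genes. In the direct comparison 13 of the 84 were higher in treated TNF-KO than in treated control spleens and 0 were lower by limma (50 and 0 at an unadjusted p under 0.05), where 45 (0.301%) and 10 (0.0669%) of all genes were called. The 55 calls of that comparison became 19 without CpG-treated control replicate 2, 100 without replicate 4 and 10 without the 4 arrays low in pancreas genes, with 2 of the 84 among the last. Untreated spleens gave no call among the 84 in either direction by limma (4 higher and 2 lower at an unadjusted p under 0.05), with a median of -0.04, where 12 (0.0803%) and 77 (0.515%) of all genes were called higher and lower.

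**Figure D2:**
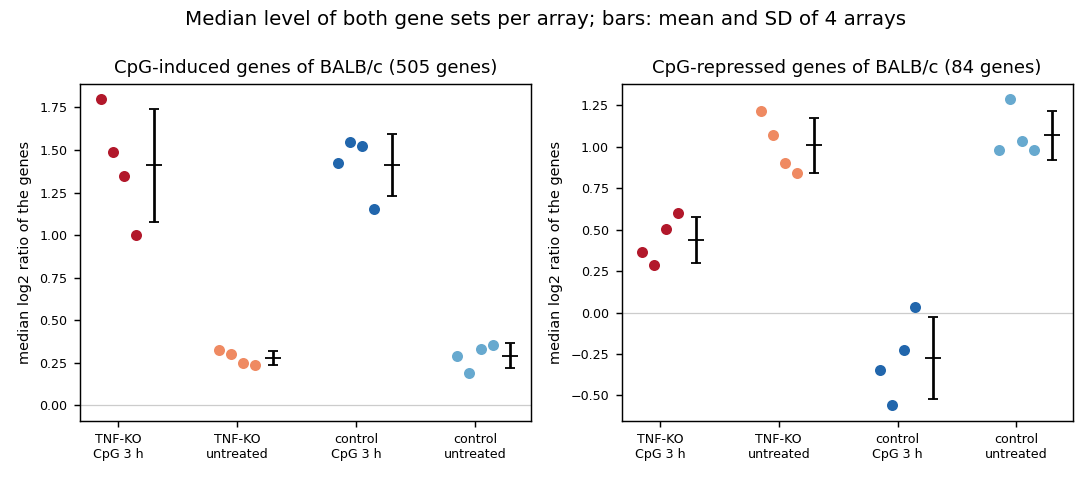
Median log2 ratio of the CpG-induced genes (left panel, 505 genes) and CpG-repressed genes (right panel, 84 genes) of BALB/c on each C57BL/6 array, with the mean and SD of the 4 arrays of a group. Treated TNF-KO arrays (0.28 to 0.60) lay above treated control arrays (-0.56 to 0.04) for the repressed genes and overlapped with them for the induced genes.

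Gas1, a membrane protein that binds hedgehog ligands, is a repressed gene whose response was close to 0 in TNF-KO mice. It stood at -3.35, -3.45, -2.50 and -2.55 on CpG-treated and at -2.74, -3.25, -3.94 and -2.54 on untreated TNF-KO arrays. CpG-treated control arrays gave -4.62, -5.18, -5.08 and -4.21 and untreated control arrays -2.08, -2.67, -2.84 and -3.02. All treated control arrays lay below all other arrays. The responses were 0.15 and -2.12, and their difference of 2.28 (95% interval 1.34 to 3.21) had an adjusted p of 0.119, so it did not pass, while treated TNF-KO spleens exceeded treated control spleens by 1.81 (adjusted p = 0.0135).

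Id4, a helix-loop-helix inhibitor of transcription, had the highest estimated difference of the 84. Its levels were 3.08, 2.49, 3.47 and 2.82 on CpG-treated and 2.13, 2.22, 2.45 and 1.73 on untreated TNF-KO arrays. They were 0.10, 0.29, 2.10 and -0.01 on CpG-treated control arrays, where replicate 3 stood apart, and 2.95, 2.25, 2.42 and 1.81 on untreated control arrays. The difference was 2.57 (95% interval 1.47 to 3.67, adjusted p = 0.124), from a response of 0.84 in TNF-KO and of -1.74 in control mice. After CpG the TNF-KO level was higher by 2.35 (adjusted p = 0.00614).

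Tcf21, a transcription factor of spleen mesenchyme needed for the organ to form, read 5.44, 5.93, 6.31 and 6.94 on CpG-treated and 6.51, 6.73, 6.32 and 6.32 on untreated TNF-KO arrays. It read 3.80, 3.47, 3.52 and 5.10 on CpG-treated control arrays, below every TNF-KO array, and 6.76, 5.62, 6.52 and 6.02 on untreated control arrays. The response was -0.31 in TNF-KO mice and -2.26 in control mice (adjusted p = 0.000368). The difference of 1.94 (95% interval 0.91 to 2.98) did not pass (adjusted p = 0.383), and the direct difference after CpG did (2.18, adjusted p = 0.00631).

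Tlx1, another transcription factor that the spleen needs to form, differed between genotypes after CpG, while neither of its responses passed. It stood at 5.22, 5.21, 5.96 and 5.73 on CpG-treated TNF-KO arrays and between 4.83 and 5.31 on untreated ones, and at 4.22, 3.62, 4.23 and 4.64 on CpG-treated control arrays, all below the treated TNF-KO arrays. Untreated control arrays held 4.95, 4.23, 5.33 and 4.81 and overlapped with the treated control and the untreated TNF-KO arrays. The responses were 0.53 in TNF-KO (adjusted p = 0.348) and -0.65 in control mice (adjusted p = 0.129). The direct difference after CpG was 1.35 (adjusted p = 0.0215) and the difference of responses 1.19 (adjusted p = 0.445). Pcdh18, a protocadherin, had responses of -0.28 and -1.77 (control adjusted p = 0.000696), a difference of 1.49 (adjusted p = 0.413) and a direct difference after CpG of 1.52 (adjusted p = 0.0249). Gdf6, a growth factor of the BMP family, had responses of -0.52 and -2.41 (control adjusted p = 0.000533) and a difference of 1.90 (adjusted p = 0.426). Gdf6 stood at 3.42 on CpG-treated TNF-KO replicate 4 and between 1.74 and 1.82 on the other 3 arrays of that group, and its levels on CpG-treated control arrays were 0.27, 0.42, 0.95 and 0.69.

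The repressed set also held genes whose fall was present without TNF. Tmem273, a membrane protein, fell in both genotypes. Its levels were -0.06, -0.38, 0.29 and 0.59 on CpG-treated and 2.42, 2.43, 1.74 and 2.01 on untreated TNF-KO arrays, and -0.57, -0.74, -0.79 and -0.08 on CpG-treated and 2.14, 1.96, 1.90 and 2.02 on untreated control arrays. Its responses were -2.04 in TNF-KO mice (adjusted p = 9.25e-06) and -2.55 in control mice (adjusted p = 7.71e-07), a difference of 0.51 with an interval from -0.15 to 1.16. Slc40a1, the iron exporter ferroportin of red pulp macrophages, fell in both genotypes as well. It stood at 3.14, 3.76, 4.21 and 4.83 on CpG-treated TNF-KO arrays against 5.19 to 6.30 on untreated ones, and at 2.51, 1.82, 2.94 and 3.85 on CpG-treated control arrays against 5.34 to 5.65. Its responses of -1.51 (adjusted p = 0.0289) and -2.77 (adjusted p = 0.000122) differed by 1.27 (95% interval 0.14 to 2.39, adjusted p = 0.578). Slc45a3, Scd2 and Ralgps2, picked here after their values were seen, marked the other end of the set, with responses of -1.78, -1.29 and -1.18 in TNF-KO and of -1.84, -0.84 and -0.69 in control mice. Scd2 encodes a fatty acid desaturase.

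**Figure D3:**
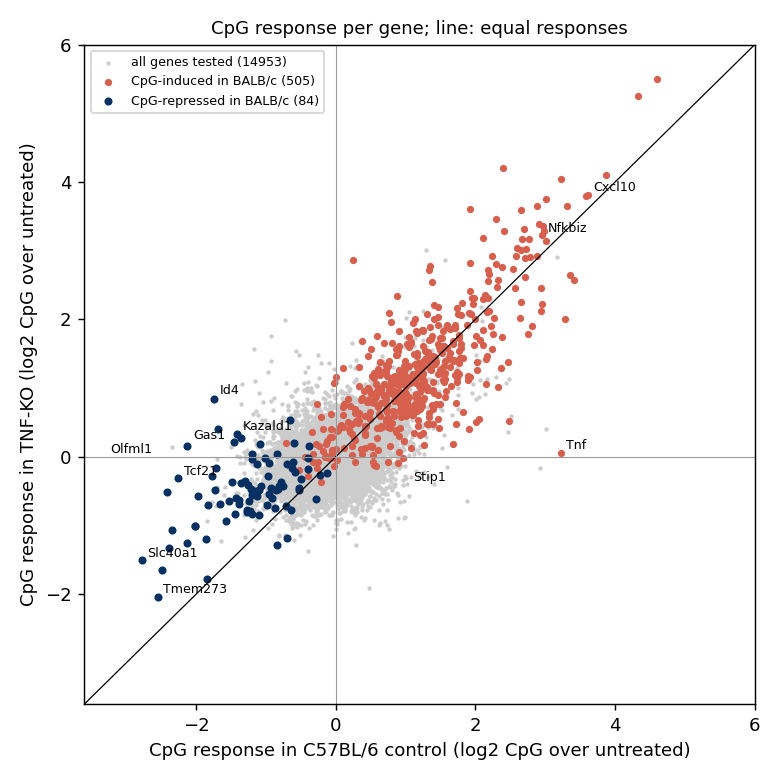
CpG response in TNF-KO mice against that in control mice (log2), each point 1 gene, with all 14953 genes in the background and both BALB/c sets in colour. Many repressed genes lie above the line of equal responses (median 0.65 above it), while the induced genes scatter around it (median 0.08 above it).

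Genes induced by CpG had similar medians in both genotypes. Over the 505 genes chosen in BALB/c the median response was 1.12 in TNF-KO and 1.13 in control mice. Of the 505, 309 and 327 rose, where 3.45% and 4.95% of all genes rose. The median level of the set was 1.80, 1.49, 1.35 and 1.00 on CpG-treated TNF-KO arrays and 1.42, 1.55, 1.53 and 1.15 on CpG-treated control arrays, so that the genotypes overlapped. Untreated arrays lay between 0.24 and 0.33 in TNF-KO and between 0.19 and 0.36 in control mice. The median difference was 0.08 (quartiles -0.29 and 0.36). The interval of the difference lay above 0 for 32 genes (6.34%) and below 0 for 38 (7.52%), somewhat more than the 4.80% and 3.22% of all genes. Tnf was the only one of the 505 that passed. In 206 of them (40.8%) the interval lay within a 2-fold change either way, so larger differences were not shown to be absent for the others.

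Rises of NF-kB regulators were present without TNF. Of 18 measured genes on this list 10 rose in TNF-KO and 12 in control mice, where 3.45% and 4.95% of all genes rose. The median difference was -0.13, and no interval of the difference lay above or below 0 (4.80% and 3.22% of all genes). Nfkbiz, an atypical inhibitor of NF-kB that also drives secondary response genes, stood at 2.89, 2.27, 2.21 and 2.33 on CpG-treated and at -0.46, -0.71, -0.95 and -1.07 on untreated TNF-KO arrays. CpG-treated control arrays gave 2.07, 1.92, 2.00 and 1.87 and untreated control arrays -0.85, -1.11, -0.84 and -1.16. Treated arrays were far above untreated ones in both genotypes, with responses of 3.23 and 2.95 and an interval of the difference from -0.26 to 0.80. Tnfaip3, the ubiquitin-editing inhibitor of NF-kB known as A20, rose by 1.54 and 1.76 (interval of the difference -0.87 to 0.42). It was picked after its values were seen.

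Inflammatory chemokines rose in both genotypes. Of 23 measured genes 10 rose in TNF-KO and 16 in control mice (3.45% and 4.95% of all genes), with median responses of 0.61 and 1.27. The median of their differences was 0.20, however, and the difference was positive for 12 of the 23. The interval of the difference lay above 0 for 2 (8.7%) and below 0 for 4 (17.4%) of them, against 4.80% and 3.22% of all genes. None passed with adjustment. Cxcl10, a ligand of Cxcr3 on activated T cells, held 6.45, 6.14, 6.24 and 5.85 on CpG-treated and 2.26, 2.67, 2.88 and 1.59 on untreated TNF-KO arrays, and 6.31, 6.50, 6.34 and 6.09 on CpG-treated and 3.08, 2.80, 2.38 and 2.53 on untreated control arrays. The treated arrays of both genotypes overlapped, and the responses of 3.82 and 3.61 gave an interval of the difference from -0.50 to 0.92. Ccl4, which attracts monocytes and T cells, rose by 5.49 in TNF-KO and 4.60 in control mice. Its difference of 0.89 was the highest of the 23. Ccl12, a monocyte attractant of the mouse, rose by 3.80 and 3.58.

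Ccl2, the main attractant of Ccr2-bearing monocytes, rose in control mice. Its level was -1.45, -2.82, -2.37 and -2.39 on CpG-treated and -2.34, -2.57, -2.67 and -2.12 on untreated TNF-KO arrays, and -1.37, -1.79, -1.25 and -1.24 on CpG-treated and -2.42, -2.87, -2.57 and -2.85 on untreated control arrays. Treated and untreated control arrays were fully apart, whereas in TNF-KO mice only replicate 1 of the treated arrays stood above the untreated ones. The responses were 0.17 in TNF-KO (adjusted p = 0.833) and 1.27 in control mice (adjusted p = 0.00231), but the difference of -1.10 (95% interval -1.81 to -0.39) did not pass (adjusted p = 0.453). The other 3 chemokines whose interval lay below 0 were Cxcl11, Ccl11 and Ccl17, with responses of 0.31, -0.24 and 0.13 in TNF-KO mice and of 1.21, 1.22 and 1.53 in control mice, where all 3 rose.

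Of 22 measured inflammatory cytokine genes 9 rose and 1 fell in TNF-KO mice, and 7 rose in control mice. Over all genes 3.45% rose and 0.321% fell in TNF-KO mice, and 4.95% rose in control mice. Il6, a cytokine of the acute phase response, read 1.40, 0.67, -0.17 and 0.25 on CpG-treated and -1.005, -1.82, -1.97 and -1.98 on untreated TNF-KO arrays. It read 1.08, 0.94, 0.93 and -0.40 on CpG-treated and -0.93, -0.98, -1.60 and -1.79 on untreated control arrays. It rose in both genotypes, by 2.23 and 1.96, with an interval of the difference from -0.78 to 1.32. Il1b rose by 2.57 in TNF-KO and 2.33 in control mice. The gene that fell in TNF-KO mice was Lif, at -0.86 against -0.28 in control mice. Il1b and Lif were picked after their values were seen.

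Receptors and enzymes were among the further genes with a negative difference, none of which passed. Fas, the death receptor of the TNF receptor family, stood at 1.83, 1.21, 1.25 and 0.51 on CpG-treated and at 0.60, 1.05, 0.77 and 0.48 on untreated TNF-KO arrays, and at 2.30, 1.91, 2.20 and 1.61 on CpG-treated and 0.32, 0.12, 0.32 and 0.39 on untreated control arrays. It rose in control mice by 1.72 (adjusted p = 0.000106), with a TNF-KO response of 0.47 and a difference of -1.25 (95% interval -1.93 to -0.56, adjusted p = 0.383). Smpdl3b, a membrane phosphodiesterase that dampens Toll-like receptor signalling in mouse macrophages, gave -1.61, -1.73, -1.99 and -1.90 on CpG-treated TNF-KO arrays, all below the -0.50, -0.55, -1.01 and -1.37 of CpG-treated control arrays. Untreated arrays lay between -2.74 and -2.04 in TNF-KO and between -3.07 and -2.77 in control mice. Its responses of 0.55 and 2.05 (control adjusted p = 3.62e-06) differed by -1.49 (95% interval -2.09 to -0.90, adjusted p = 0.119).

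Avpr1a, a vasopressin receptor, had the smallest adjusted p among the negative differences that did not pass (-1.74, adjusted p = 0.0768). Its CpG-treated levels were 0.38, 0.25, 0.36 and 0.74 in TNF-KO and 1.71, 1.73, 1.19 and 1.08 in control mice, with no overlap. One untreated array of each genotype held no value for it. Saa3, an acute phase protein made by macrophages and stroma, rose in both genotypes, by 2.00 and 3.28, with a difference of -1.28 (95% interval -2.25 to -0.31, adjusted p = 0.488). Of the 21 measured apoptosis regulators 3 rose in TNF-KO and 7 in control mice, where 3.45% and 4.95% of all genes rose. The interval of the difference lay below 0 for 3 of the 21 (3.22% of all genes), namely Fas and the BH3-only genes Bcl2l11 (0.41 and 1.07) and Pmaip1 (0.55 and 1.46). Other probes of Pmaip1 gave differences of 0.256 and 0.025, against -0.914 for the probe used. Other probes of Fas and Bcl2l11 gave -0.837 and -0.355.

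On the list of TNF and lymphotoxin signalling, 25 genes were measured, of which 3 rose in TNF-KO and 5 in control mice (3.45% and 4.95% of all genes). The receptor Tnfrsf1a was among the 3 (1.31, against 0.67 in control mice), with Traf1, an adaptor of TNF receptors (1.30 and 1.36), and Tnfaip2 (1.85 and 1.23). Lta, the ligand lymphotoxin alpha, had responses of 0.01 and 0.94, neither of which passed (adjusted p = 0.996 and 0.0642). Tnfrsf1a, Traf1 and Tnfaip2 were picked after their values were seen.

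**Figure D4:**
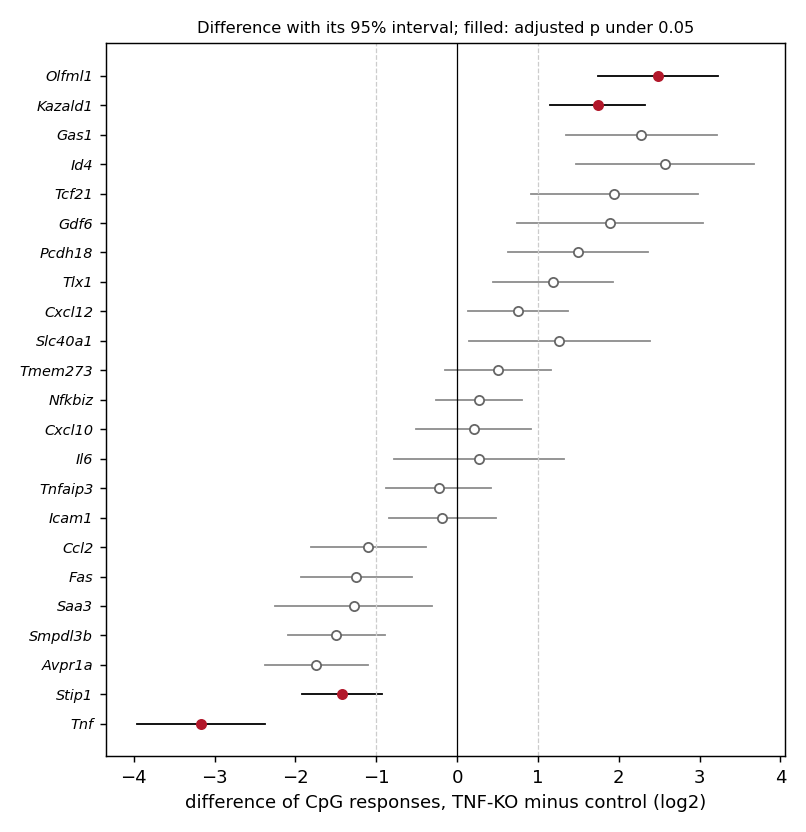
Difference of the CpG responses, TNF-KO minus control (log2), with its 95% interval for genes named in the text. Filled points passed with an adjusted p under 0.05, which holds for Olfml1, Kazald1, Stip1 and Tnf alone, and dashed lines mark a 2-fold difference.

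Interferon-stimulated genes rose in both genotypes and started from a lower level in untreated TNF-KO spleens for some members. Of 38 measured genes 31 rose in TNF-KO and 29 in control mice (3.45% and 4.95% of all genes). Their median responses were 1.99 and 1.62, with a median difference of 0.31. Their median level was 3.10, 2.97, 2.79 and 2.22 on CpG-treated TNF-KO arrays and 2.78, 3.01, 2.83 and 2.31 on CpG-treated control arrays, which overlap. Untreated arrays gave 0.49, 0.79, 0.56 and 0.46 in TNF-KO mice and 0.97, 0.68, 0.83 and 0.84 in control mice, so that 1 untreated TNF-KO array reached into the control range and the other 3 lay below it. The interval of the difference was above 0 for 11 genes (28.9%) and below 0 for 0, against 4.80% and 3.22% of all genes, and none passed. Untreated TNF-KO spleens were lower than untreated control spleens for 4 of the 38 (0.515% of all genes), namely Isg15, Isg20, Rsad2 and Oasl2. The 89 calls over all genes in the untreated comparison became 2 without untreated TNF-KO replicate 3 and 379 without replicate 4. The erythroid genes were also lower in untreated TNF-KO spleens, with a median of -2.36 and 5 of 19 called lower. With their mean as a covariate the count of calls was 3 (1 higher and 2 lower, with 812 genes at an unadjusted p under 0.05). Untreated erythroid medians went largely with genotype (0.86 to 3.78 in TNF-KO and 3.73 to 4.90 in control mice). That fit therefore cannot tell erythroid content and genotype apart. The count was 1 without the 4 arrays low in pancreas genes.

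Isg15, a ubiquitin-like modifier, read 3.22, 3.15, 2.79 and 3.04 on CpG-treated and 0.33, -0.06, -0.07 and 1.15 on untreated TNF-KO arrays, and 3.42, 3.65, 3.03 and 3.24 on CpG-treated and 2.52, 1.95, 1.65 and 1.87 on untreated control arrays. Treated arrays overlapped and untreated arrays did not. The responses of 2.71 and 1.34 differed by 1.37 (adjusted p = 0.383), and the untreated level differed by -1.66 (adjusted p = 0.00874). Rsad2, the antiviral enzyme viperin, held 5.74, 4.95, 4.34 and 5.80 on CpG-treated and 2.08, 1.81, 1.52 and 3.98 on untreated TNF-KO arrays, and 5.57, 6.09, 4.88 and 5.90 on CpG-treated and 6.56, 5.55, 4.64 and 4.69 on untreated control arrays. In control mice treated and untreated arrays overlapped, with a response of 0.25, against 2.86 in TNF-KO mice (adjusted p = 0.00154). The difference of 2.61 (adjusted p = 0.402) lay beside an untreated difference of -3.01 (adjusted p = 0.0134).

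Markers of cell types were counted in the same way, and list members that are named only for having passed or for their interval were picked after their values were seen. On the list of reticular and mesenchymal cells of the spleen, none of 16 measured genes rose or fell in TNF-KO mice by limma (2 higher and 0 lower at an unadjusted p under 0.05), and Tcf21, Wt1 and Il7 fell in control mice. Over all genes 2.75% fell in control mice. The interval of the difference lay above 0 for 6 of the 16 and below 0 for 1, against 4.80% and 3.22% of all genes. The 1 below 0 was Acta2, the smooth muscle actin of contractile stroma (-0.26 and 0.35). The collagen genes Col1a1, Col1a2 and Col3a1 had responses between -0.10 and 0.10 in TNF-KO and between -0.09 and -0.03 in control mice, none of which passed. Cxcl12, a chemokine of stromal niches, was higher in treated TNF-KO than in treated control spleens (1.10, adjusted p = 0.022), and its other 3 probes gave differences of responses of 0.68, 0.91 and close to 0, against 0.75 for the probe used. Ccl19, a chemokine of the T cell zone, was lower in treated TNF-KO spleens (-0.89, adjusted p = 0.0426).

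Red pulp and marginal zone macrophages gave 1 rise and 1 fall among 18 measured genes in TNF-KO mice, and 5 falls in control mice. The 5 were Slc40a1, Vcam1, Mrc1, Axl and Mertk, and Slc40a1 fell in both genotypes. Over all genes 3.45% rose and 0.321% fell in TNF-KO mice, and 4.95% rose and 2.75% fell in control mice. The interval of the difference lay above 0 for 4 of the 18 (22.2%, against 4.80% of all genes). Among 16 measured genes of monocytes and macrophages 8 rose in TNF-KO and 7 in control mice, with median responses of 0.83 and 0.12 and a median difference of 0.48. Ccr2, the receptor for Ccl2 on inflammatory monocytes, was 4.77, 4.29, 3.79 and 3.93 on CpG-treated TNF-KO arrays and 1.69, 1.67, 2.44 and 2.41 on CpG-treated control arrays, far apart. Without treatment it was 3.52, 3.81, 3.34 and 4.17 in TNF-KO and 2.52, 2.42, 2.78 and 2.87 in control mice, also without overlap. It was higher by 2.14 after CpG (adjusted p = 0.000338) and by an estimate of 1.06 before (adjusted p = 0.0575), and the difference of responses was 1.08 (adjusted p = 0.46).

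Lists of erythroid cells, pancreas and fat moved between arrays. The median level of 19 erythroid genes was 3.12, 3.06, 1.50 and 4.34 on CpG-treated and 0.86, 0.98, 1.12 and 3.78 on untreated TNF-KO arrays, and 4.02, 4.33, 3.46 and 3.76 on CpG-treated and 4.51, 4.90, 3.73 and 3.92 on untreated control arrays. Its median difference was 1.37, and 5 of the 19 were lower in untreated TNF-KO spleens (0.515% of all genes). The 18 pancreas genes had medians from 3.02 to 7.22 on TNF-KO arrays and from 0.08 to 6.58 on control arrays, with 4 arrays under 4, and a median difference of -0.98. The 10 genes of fat had medians from 0.18 to 1.16 on TNF-KO arrays and from 0.06 to 1.09 on control arrays, and a median difference of 0.36. The part of these lists in the difference of the repressed genes was not tested as a cause. The median difference of the 84 genes was 0.72 with the pancreas genes as a covariate and 0.82 with the erythroid genes as a covariate. It was 0.61 without the 4 arrays low in pancreas genes. The covariates come from the same arrays, and untreated erythroid levels went largely with genotype. The mAdbID numbers in the titles were cut into 5 runs, a new one starting where the gap was over 30. No label says that these runs are batches. The first run holds 2 CpG-treated TNF-KO arrays and 1 array of each other group. Its treated control array, replicate 2, was the lowest of its group for the repressed set (-0.56), and it and the untreated TNF-KO array of that run are among the 4 arrays low in pancreas genes. Within that run the median difference was 0.98 over the repressed genes, -0.12 over the induced genes and 0.00 over all genes.

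**Figure D5:**
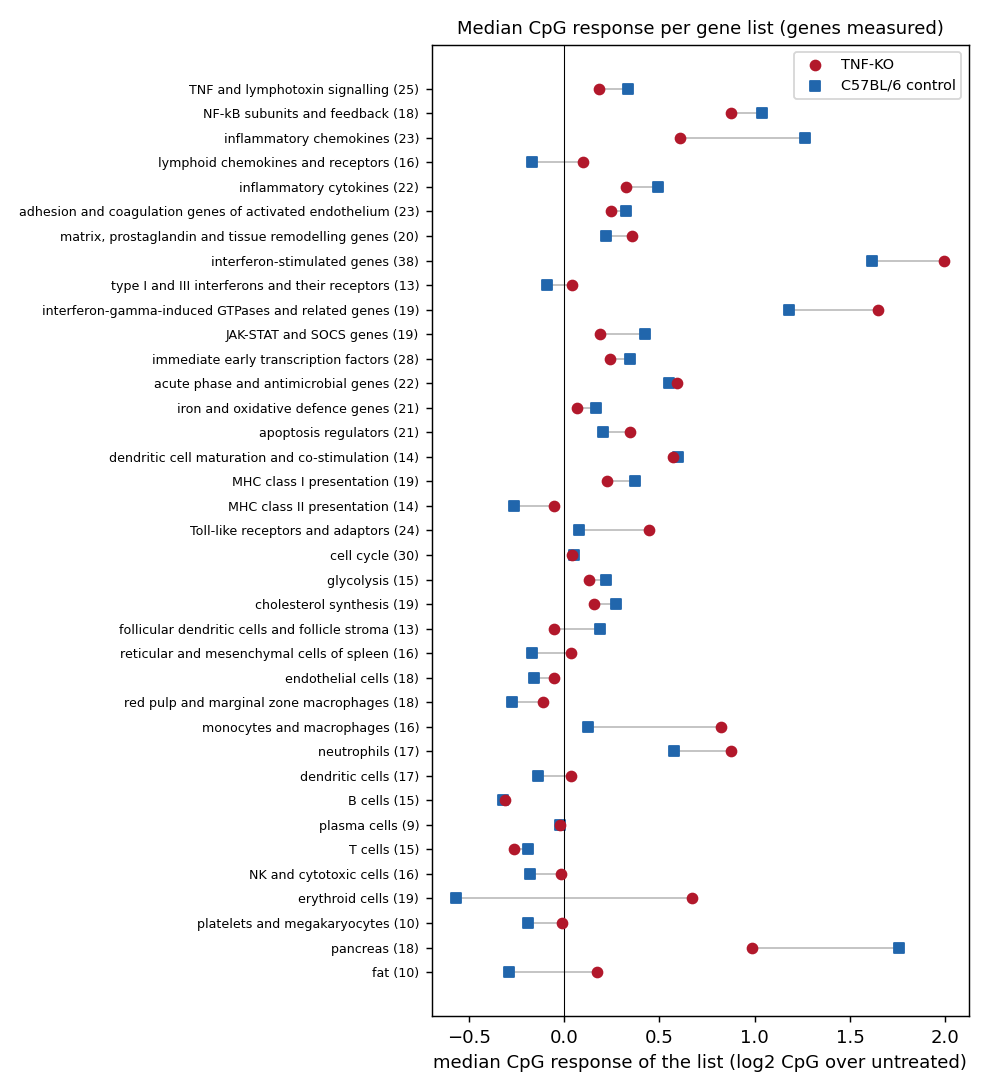
Median CpG response of each gene list in TNF-KO and control mice (log2). The BALB/c sets and all genes tested are not drawn. The interferon-stimulated genes show 1.99 in TNF-KO and 1.62 in control mice.

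The promoters of the induced genes were searched for a sequence typical of NF-kB sites, GGG, any 2 bases and TTTCC, on either strand. The search ran from 250 bases before to 50 bases after the start of transcription as given by RefSeq (GRCm38.p6). The promoters printed below, and their matches, cover the 250 bases before the start alone. The motif stood in 11 of 392 induced genes with a promoter in the table (2.81%), in 232 of 11893 genes tested (1.95%) and in 512 of 27025 genes of the whole table (1.89%). A match describes letters and not a bound site. Both promoters printed here were picked after their values were seen, because they belong to genes that rose in both genotypes. Cxcl1, a neutrophil attractant, rose by 1.27 in TNF-KO (adjusted p = 0.014) and 2.03 in control mice (adjusted p = 0.000166), and its promoter at chr5:90890995-90891244 on the plus strand holds 2 matches. Tnfaip3, described above, has 1 match at chr10:19015411-19015660 on the minus strand, and its other promoter in the table, at chr10:19011964-19012213, has 0. Capitals mark the matches.
Cxcl1 promoter: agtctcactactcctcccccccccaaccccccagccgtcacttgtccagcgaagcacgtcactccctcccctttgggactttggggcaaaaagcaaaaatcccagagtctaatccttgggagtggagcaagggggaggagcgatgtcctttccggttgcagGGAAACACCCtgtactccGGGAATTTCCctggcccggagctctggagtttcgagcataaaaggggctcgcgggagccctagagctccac
Tnfaip3 promoter: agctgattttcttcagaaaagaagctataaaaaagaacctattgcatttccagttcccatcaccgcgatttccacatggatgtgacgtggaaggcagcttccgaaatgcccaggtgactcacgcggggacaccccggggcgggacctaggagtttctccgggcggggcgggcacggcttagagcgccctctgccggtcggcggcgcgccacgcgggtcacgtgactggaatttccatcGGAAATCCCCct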

How the data were processed

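Spleen RNA was measured on two-colour arrays in 50 samples, of which 16 form the comparison. The gene sets came from a contrast of 10 BALB/c arrays, in a limma fit of all BALB/c arrays of the series. The deposited values are log2 ratios of Cy5 (spleen) over Cy3 (reference). Per the series text, the authors corrected background, removed flagged values and spots with both signals under 100, normalised by lowess and, with BRB ArrayTools and mAdb, kept genes on over 70% of the arrays. A shift shared by most genes would be lost in this normalisation. Intensities were not used, so signal over background is unknown, and precision is limited by the number of arrays.

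Of 36607 probes 30750 held values and 26926 carried 1 gene symbol. Left out were 203 probes with more than 1 symbol and 9478 without one. The probe with most values stood for a gene, and over 70% of the fitted arrays had to hold a value. Missing values were not imputed, so a gene's group mean rests on the arrays that hold it. Arrays were centred on their medians. Group means of the 16 arrays were fitted with limma 3.58.1 (lmFit, eBayes) in R 4.3.3, each contrast was adjusted by Benjamini-Hochberg over all genes, and the threshold was 0.05. The fitting code was tested on simulated data, and the limit on the error of its estimates was changed after a first run had failed it. BALB/c sets needed a 2-fold change as well. Alternatives covered centring, scaling, missing values, probe choice, array weights, covariates, run and left-out arrays.

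Printed genes come from a rule: Tnf, differences that passed, the next by p up to 10 a direction, up to 4 members of each of 37 lists with the smallest p, and the 10 strongest BALB/c changes each way. Others are said to be picked afterwards. Members and lists were chosen with earlier results of these data known. Nothing beyond the series text says that arrays of a group come from separate animals, and p-values measure the spread between arrays, which may be technical in part.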

Additional observations from a re-analysis of the deposited data

Results flagged for a closer look

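Values on single arrays were examined in 134 groups of 4, covering genes and lists with per-array values in the text, a scope set after values were seen, and chance marks about 1 in 20 groups. In 8 groups 1 array lay far from the other 3. Tnf on CpG-treated TNF-KO replicate 1 was 0.432, above -0.442 to -0.303 on the others. Id4 on CpG-treated control replicate 3 was 2.101, above -0.008 to 0.291. Gdf6 on CpG-treated TNF-KO replicate 4 was 3.416, above 1.735 to 1.825. Slc40a1 on untreated TNF-KO replicate 1 was 6.303, above 5.19 to 5.27. Il6 on untreated TNF-KO replicate 1 was -1.005, above -1.982 to -1.821, and on CpG-treated control replicate 4 it was -0.396, below 0.932 to 1.085. The median of the monocyte and macrophage genes on untreated control replicate 3 was 0.921, below 1.42 to 1.446. The median of the erythroid genes on untreated TNF-KO replicate 4 was 3.78, above 0.86 to 1.121.

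The CpG responses of both genotypes differed by the interaction test in limma for 4 genes after Benjamini-Hochberg adjustment. These were Olfml1 (2.49, adjusted p = 0.00976) and Kazald1 (1.74, adjusted p = 0.0345), with higher responses in TNF-KO mice, and Tnf (-3.17, adjusted p = 0.00183) and Stip1 (-1.42, adjusted p = 0.042), with lower ones.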

How the results depend on the processing

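The number of genes whose responses differed was 4 and changed with the setting. It was 2 with every probe tested, 12 with all 50 arrays in 1 fit, 7 with array weights, 2 with the array run as a term and 8 without the last run. Without the 4 arrays low in pancreas genes limma called 0 genes, with 920 at an unadjusted p under 0.05, and fewer arrays entered that fit. The last 2 settings, and the erythroid covariate in the report, were chosen after seeing the data. Leaving out 1 array gave 2 to 8, with 8 without CpG-treated control replicate 4. Tnf and Olfml1 passed in every setting but the one without the 4 arrays (adjusted p 0.143 and 0.285), with adjusted p from 0.000199 and 3.66e-05. Kazald1 lay between 0.00863 and 0.285 and Stip1 between 0.0235 and 0.285. The other settings gave 3 or 4 genes.

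Leaving out 1 array gave 353 to 696 calls for the TNF-KO response (353 without CpG-treated TNF-KO replicate 1), 766 to 1347 for the control response (766 without CpG-treated control replicate 2), 19 to 100 for treated TNF-KO against treated control (19 without CpG-treated control replicate 2 and 100 without replicate 4) and 2 to 379 for the untreated comparison (2 without untreated TNF-KO replicate 3 and 379 without replicate 4). The untreated comparison had 158 calls with the replicate number as a block and 343 with the array run as a term. Further settings of these 4 comparisons were added after seeing the data. Without the 4 arrays low in pancreas genes, most of them control arrays, the calls were 356 for the TNF-KO response and 301 for the control response. They were 10 for the treated and 1 for the untreated comparison, and fewer arrays entered that fit. A 2-fold minimum left 357 and 512 calls of the TNF-KO and control responses. The treated comparison gave 154 with all 50 arrays, 154 with array weights, 36 with the erythroid covariate and 107 without the last run. The untreated one gave 23 with arrays scaled to the same spread, 22 with the pancreas covariate, 3 with the erythroid covariate, 218 with all 50 arrays, 190 with array weights and 437 without the last run. The cause of these shifts was not tested.

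The median difference of the repressed genes was 1.399 for the 11 genes changed at least 4-fold in BALB/c and 0.282 for all 477 called. It stayed positive in all settings, from 0.543 to 0.766 with 1 array left out. That of the induced genes lay between -0.111, with the array run as a term, and 0.155, and between -0.036 and 0.157 with 1 array left out, so its sign is not settled.

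Groups share replicate numbers in the titles. Same-numbered arrays of different groups correlated between -0.248 and 0.402, with 11 of 24 pairs above 0.1. Their median was 0.077, against -0.048 for differently numbered arrays, and 6 of 16 arrays correlated best with their own number. These correlations do not settle whether the numbers pair the arrays, and the main fit did not use the numbers. With the replicate number as a block the difference of responses gave 4 genes (Id4, Kazald1, Olfml1 and Tnf) and the repressed genes a median of 0.659.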

Other observations

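Untreated TNF-KO spleens differed from untreated control spleens for 89 genes, 12 higher and 77 lower, by limma with Benjamini-Hochberg adjustment. The number was 22 with the pancreas genes as a covariate, 3 with the erythroid genes as a covariate (1 higher and 2 lower) and 1 without the 4 arrays low in pancreas genes. Among the lower ones were genes of red blood cell precursors, such as Slc4a1, the band 3 anion exchanger (-2.46), Fech, which inserts iron into heme (-2.31), and Slc25a37, the mitochondrial iron importer mitoferrin (-2.39), 3 of the 5 erythroid genes called lower. On the treated arrays the median of the erythroid list differed by -1.06. In untreated spleens erythroid levels went largely with genotype, so the fit with the erythroid covariate cannot tell them apart. Ccr1, a chemokine receptor of monocytes and neutrophils, was higher in TNF-KO spleens without treatment (1.20) and after CpG (1.80, adjusted p = 0.000141), and was picked after its values were seen.

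Further genes that were higher in treated TNF-KO than in treated control spleens, picked after their values were seen, were Cav1 and Cav2, the coat proteins of caveolae (1.30 and 1.07), Ptgis, the prostacyclin synthase (1.23), and Vegfa, a growth factor of blood vessels (1.20). Their untreated differences were 0.36, 0.13, -0.13 and 0.21, none of which passed. Cav2 and Vegfa belong to the genes repressed in BALB/c.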
